A study of Mus musculus with 24 samples.

Results

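Hippocampal samples of 6 mice with the most and 6 mice with the least RNA of the type I collagen gene Col1a1 were compared within a series of 24 hippocampal libraries. The mice were chosen by a measured value: counts were divided by the total of their library and multiplied by 1000000 to give CPM, all 24 libraries were ranked by Col1a1 CPM, and the highest 6 (called fibroblast-rich here) and the lowest 6 (fibroblast-poor) were set against each other. The remaining 12 mice lay between them. Because Col1a1 of these same libraries selected the mice, every difference between rich and poor samples is a description without a test. Tests were made in the 12 middle mice, which that contrast did not use, for the labelled factors of genotype and sex, and for the correlation of Col1a2 with Col3a1.

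Fibroblasts of the brain are connective tissue cells of mesenchymal and neural crest origin. They lie in the layers of the meninges, in the stroma of the choroid plexus and in the sheath around larger vessels, and they make fibrillar collagens, small proteoglycans, basement membrane proteins, retinoic acid and transporters that face the cerebrospinal fluid. The hippocampus borders on pia and choroid plexus and is entered by vessels, and fibroblasts are a small minority of its cells. In bulk tissue, fewer fibroblasts and less RNA per fibroblast cannot be told apart, and many genes of the list used below are also expressed by other brain cells.

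All 24 mice were adults with 3 females and 3 males of each of 4 genotypes. Egr1wtNesCre- mice carried neither modification and served as wild type. Egr1fNesCre- mice carried Egr1 alleles flanked by loxP sites, from a C57BL/6N tm1a line of the Centre for Phenogenomics. Egr1wtNesCre+ mice carried the transgene of the Nestin-Cre line B6.Cg-Tg(Nes-Cre)1Kln/J, which expresses Cre recombinase in the neural lineage. Egr1fNesCre+ mice carried both and lack Egr1 in the cells where Cre acted (Egr1cKO). The labels give no treatment. The mouse numbers of floxed and unfloxed mice come from separate ranges, so flox status and mouse series cannot be told apart.

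Libraries held 18025168 to 34955004 counts, with 19809755 to 24067518 in the rich and 18025168 to 34955004 in the poor samples. Mitochondrial genes took 4.31% to 6.60% of the counts in the rich and 4.18% to 5.02% in the poor samples. Egr1, the targeted gene, measured 4.98 to 9.68 CPM in the 6 Egr1cKO mice and 48.3 to 148 CPM in the other 18, as the Egr1cKO labels say. Egr1 cannot check sex, or which of the other 18 carried Cre or the floxed alleles. One GEO label calls the cells endocrine while the tissue is hippocampus: pituitary hormone genes were almost absent (Gh at most 6 and Prl at most 13 counts in any library), whereas the dentate gyrus factor Prox1 was present at 82.1 CPM or more on both sides. One rich library, female Egr1wtNesCre+ replicate 1, stood apart with 2210 CPM summed over 12 choroid plexus genes. It was the highest of the rich mice for 37 of the 94 fibroblast genes described below. Without it the median ratio of rich to poor medians over the list was 1.51, the same as with it, and 84 ratios in place of 88 were above 1.

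The promoters of Col1a2 and Col3a1 are shown because these genes varied together, with the promoters of Fmod and Slc13a3, whose rich and poor values also did not overlap. Each window runs from 250 bases before to 50 bases after the start site in RefSeq on GRCm38.p6. Capitals mark every match, on either strand, to the CCAAT box (searched as CCAAT), the TATA box (as TATAAA), the GC box (as GGGCGG) and a motif of the EGR1 type (as GCGTGGGCG or as GCGGGGGCG). Col1a2 lies at chr6:4505368-4505667 on the plus strand, Col3a1 at chr1:45311288-45311587 on the plus strand, Fmod at chr1:134037004-134037303 on the plus strand and Slc13a3 at chr2:165473148-165473447 on the minus strand. For Col1a1 no window is shown.
Col1a2: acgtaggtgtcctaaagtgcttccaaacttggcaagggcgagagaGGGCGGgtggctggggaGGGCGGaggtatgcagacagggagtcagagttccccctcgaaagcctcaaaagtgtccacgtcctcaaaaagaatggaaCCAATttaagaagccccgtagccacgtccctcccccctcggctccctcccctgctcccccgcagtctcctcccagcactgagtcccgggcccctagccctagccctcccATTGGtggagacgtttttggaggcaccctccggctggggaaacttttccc
Col3a1: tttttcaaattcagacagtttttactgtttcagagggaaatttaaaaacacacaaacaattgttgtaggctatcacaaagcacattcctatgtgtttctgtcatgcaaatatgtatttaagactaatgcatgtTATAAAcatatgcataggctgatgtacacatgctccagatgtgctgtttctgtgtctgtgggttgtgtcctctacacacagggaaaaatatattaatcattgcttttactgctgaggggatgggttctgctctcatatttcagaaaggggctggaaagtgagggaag
Fmod: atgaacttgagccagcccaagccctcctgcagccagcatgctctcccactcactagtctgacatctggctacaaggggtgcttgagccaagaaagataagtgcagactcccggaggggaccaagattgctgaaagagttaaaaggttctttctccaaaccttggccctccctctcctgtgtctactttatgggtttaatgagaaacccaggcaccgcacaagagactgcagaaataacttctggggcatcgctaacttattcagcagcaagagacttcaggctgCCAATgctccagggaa
Slc13a3: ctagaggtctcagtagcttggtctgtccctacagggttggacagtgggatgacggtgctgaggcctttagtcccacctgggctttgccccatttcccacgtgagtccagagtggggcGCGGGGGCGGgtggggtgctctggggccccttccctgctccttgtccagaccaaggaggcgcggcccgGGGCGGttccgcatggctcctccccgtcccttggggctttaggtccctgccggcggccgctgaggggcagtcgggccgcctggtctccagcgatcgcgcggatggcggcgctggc

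Col1a2 held the GC box 2 times and the CCAAT box 2 times, 1 of the latter on the opposite strand. The match on the opposite strand began at position 1 from the start site. Col3a1 matched TATAAA once, at position -117, and Fmod matched CCAAT once, at position 35 and so past the start site. Slc13a3 held the GC box 2 times and GCGGGGGCG once, which overlapped 1 of its GC boxes. Of 32851 RefSeq windows of this length, 37.4% held the CCAAT box, 13.6% the TATA box, 35.7% the GC box, 0.612% the form GCGTGGGCG and 2.91% the form GCGGGGGCG. Windows were found for 66 of 94 fibroblast genes and for 13 of the 18 genes without overlap described below. An EGR1-type motif occurred in windows of 5 genes, Col8a1, Fbln1, Lamb1, Slc13a3 and Twist2, and rich and poor values were apart only for Slc13a3 among these 5. Such a match is a description of letters and does not show binding.

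Type I collagen is a heteromer of the Col1a1 and Col1a2 chains, and type III collagen is built from Col3a1 alone. Col1a1 (chromosome 11, 94936224 to 94953042) ranged over 10.2, 10.9 and 18.4 CPM (lowest, median and highest) in the rich and 3.66, 4.73 and 5.49 CPM in the poor samples, a ratio of medians of 2.31 that the ranking itself fixed. At the upper limit, female Egr1wtNesCre+ replicate 1 (10.23 CPM) was the last rich and female Egr1wtNesCre- replicate 3 (10.22 CPM) the first middle mouse. At the lower limit, female Egr1fNesCre- replicate 2 (6.33 CPM) was the last middle and female Egr1fNesCre- replicate 3 (5.49 CPM) the first poor mouse. The upper limit therefore fell between nearly equal values and the lower one in a wider gap. Raw Col1a1 counts ran from 204 to 379 in rich and from 76 to 187 in poor libraries.

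Col1a2 followed the ranking with 9.68, 13.3 and 21.1 CPM in the rich and 3.23, 6.05 and 7.90 CPM in the poor samples (ratio of medians 2.20). Col3a1 measured 2.09, 3.32 and 7.12 CPM in the rich and 0.771, 1.14 and 1.66 CPM in the poor samples (ratio 2.93). Neither gene overlapped between the groups. Male Egr1fNesCre+ replicate 1 was highest and male Egr1wtNesCre- replicate 1 lowest for all 3 collagens. Col1a2 and Col3a1, neither of which set the ranking, correlated over the 24 mice with Pearson's r = 0.82 (permutation p = 1e-05, the smallest that 100000 draws can give) and Spearman's rho = 0.77 (permutation p = 4e-05). Without the 2 mice farthest from the median of Col1a2, r was 0.73. Within the 12 floxed mice r was 0.81 and within the 12 unfloxed mice 0.82. Within the 12 middle mice alone it was 0.40. Those mice were cut to a narrow range of Col1a1 (6.33 to 10.2 CPM), so their r cannot be set against the others.

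**Figure D1:**
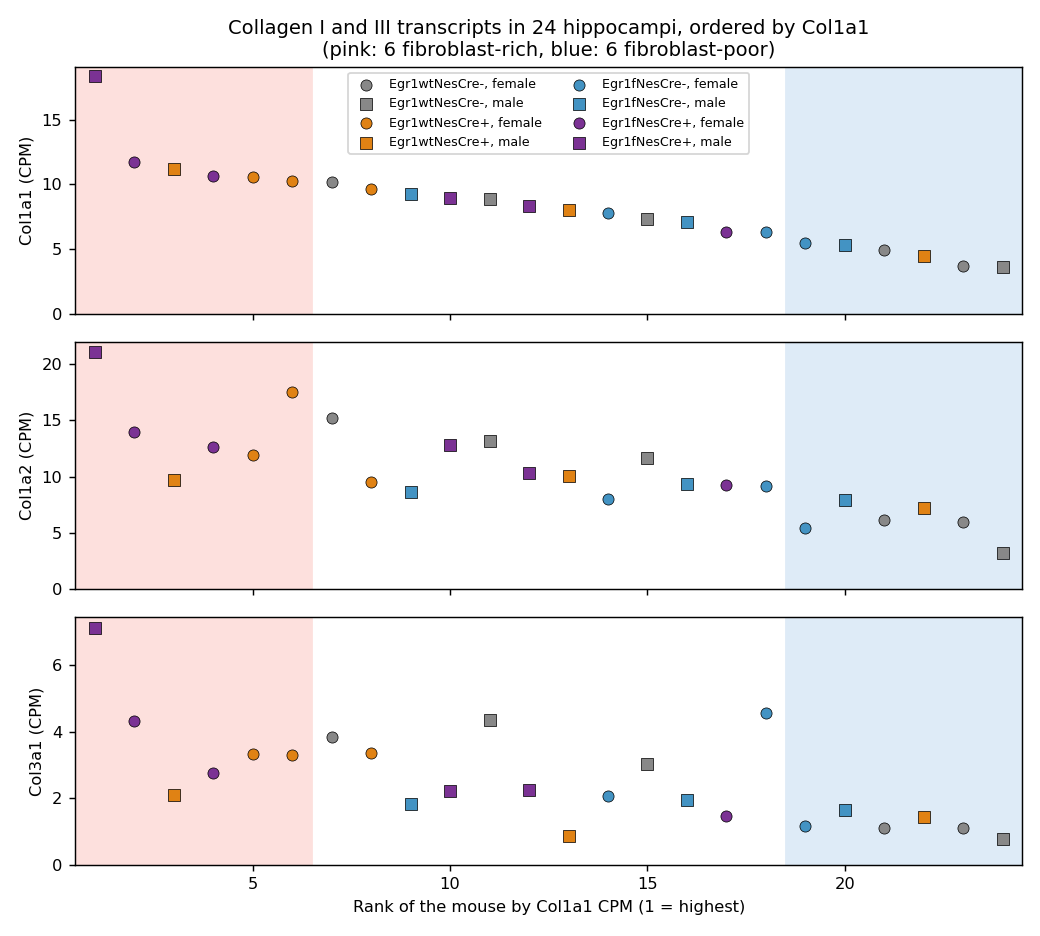
Col1a1, Col1a2 and Col3a1 (CPM, vertical axes) in each of 24 hippocampi ordered by Col1a1 rank (horizontal axis), with colour for genotype, circles for females, squares for males, pink shading behind the 6 rich and blue shading behind the 6 poor mice. The 6 poor mice lie at or below 7.90 CPM of Col1a2 and 1.66 CPM of Col3a1, under all 6 rich mice, while several middle mice reach the rich range of both genes.

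The list of fibroblast genes held 94 genes in 10 roles, of which 92 passed the filter on low counts. In 18 of these 92 all 6 rich samples were above all 6 poor samples, and in 0 all rich were below. Over all 19742 genes kept, 77 were above without overlap (0.390%) and 27 below (0.137%). The ratio of the rich to the poor median was above 1 for 88 of the 92 and had a median of 1.51, against 49.3% of all genes and a median of 0.998. Without Col1a1, Col1a2 and Col3a1, 15 of 89 were apart and 85 ratios were above 1. The median correlation with Col1a1 over 24 mice was 0.46 in the list and 0.02 over all genes, and 41 members exceeded 0.5 (38 without the 3 collagens). Since Col1a1 chose the samples, nothing is read from these figures. The summed CPM of the other 93 genes was 1507 to 1933 in the rich, 1107 to 1451 in the poor and 1233 to 2100 in the middle samples. The medians were 1598 CPM in the rich, 1233 CPM in the poor and 1574 CPM in the middle samples, so by this sum rich and middle samples were alike.

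**Figure D2:**
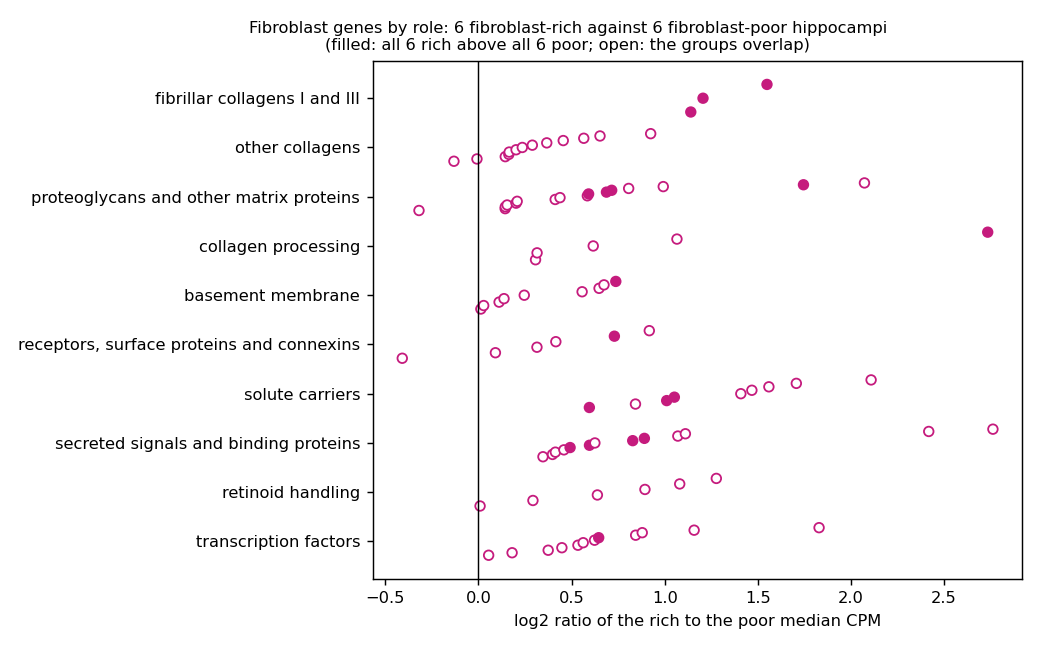
Ratio of the rich to the poor median for 92 fibroblast genes on a log2 scale (horizontal axis), in rows by role; a filled point marks a gene whose 6 rich samples were all above the 6 poor samples. Solute carriers lie farthest to the right as a group (median ratio 2.65), while other collagens (1.18) and basement membrane genes (1.19) stay near the line of equal medians.

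The other collagens, which include the fibril-associated, beaded and network-forming types, overlapped between the groups in all 13 cases, with a median ratio of 1.18. Col12a1, a collagen that coats fibrils, measured 8.18, 13.3 and 25.2 CPM in the rich and 6.22, 8.98 and 12.4 CPM in the poor samples. Col6a1, a chain of the beaded filament collagen VI, measured 14.2, 29.2 and 50.6 against 8.72, 23.9 and 34.0 CPM. Col5a1, which nucleates collagen fibrils, ran from 9.40 to 56.4 CPM in the rich (median 16.7) and from 10.9 to 25.2 CPM in the poor samples (median 14.9). The highest rich values of these 3 genes belonged to the library rich in choroid plexus genes, and the next rich samples stood at 14.6 CPM for Col12a1, 38.6 CPM for Col6a1 and 22.0 CPM for Col5a1. Col16a1, another collagen bound to fibrils, had a rich median of 16.8 and a poor median of 18.45 CPM.

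Of 16 proteoglycans and other matrix proteins, 4 did not overlap. Fmod, fibromodulin, a small leucine-rich proteoglycan that binds collagen fibrils, was at 3.43, 8.10 and 11.1 CPM in the rich and 1.25, 2.42 and 2.90 CPM in the poor samples (ratio 3.35). Aebp1, a collagen-binding protein, measured 12.1, 12.9 and 16.7 against 6.46, 7.83 and 9.10 CPM (ratio 1.64). Bgn (biglycan, ratio 1.61) and Lum (lumican, ratio 1.51) were the other members apart. Dcn, decorin, the most abundant proteoglycan of the list, overlapped broadly at 19.8, 38.3 and 49.3 CPM in the rich and 6.36, 28.8 and 42.2 CPM in the poor samples. Its lowest values were in male Egr1wtNesCre- replicate 1 and female Egr1wtNesCre- replicate 2, the mice with the least Col1a1, but other poor mice reached 42.2 CPM. Prelp, which anchors basement membranes to collagen, had medians of 22.5 and 20.4 CPM, and Fbn1, the microfibril protein fibrillin, was lower in the rich group by its median, 16.2 against 20.2 CPM.

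Genes that fold and crosslink collagen had ratios above 1 in 5 of 5 cases, with 1 gene apart. Lox, the lysyl oxidase that crosslinks collagen, was at 0.185 to 0.872 CPM in the rich and 0 to 0.166 CPM in the poor samples, a few counts at most in the latter. Serpinh1, the collagen chaperone of the endoplasmic reticulum, measured 12.2, 16.0 and 17.6 against 11.6, 12.8 and 13.9 CPM. Mrc2, a receptor that takes up collagen fragments, measured 5.98, 7.40 and 8.43 against 3.98, 4.83 and 6.16 CPM, so only the edges of the groups met.

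Basement membrane genes, which endothelial and mural cells express as well, had a median ratio of 1.19 with 1 of 9 apart. Nid2, a nidogen that links laminin to collagen IV, was that gene, with 3.13, 4.44 and 10.2 CPM in the rich and 1.54, 2.67 and 3.09 CPM in the poor samples. The value of 10.2 CPM was in the library rich in choroid plexus genes, with the next at 4.53 CPM. The collagen IV chains had medians of 67.8 and 67.2 CPM for Col4a1 and of 78.7 and 77.2 CPM for Col4a2. The laminin chain genes Lamc1 (51.3 and 43.2 CPM) and Lamb1 (47.8 and 44.2 CPM) also overlapped.

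Among receptors, surface proteins and connexins 1 of the 6 genes that passed the filter was apart. Gjb2, a connexin of meningeal cells, measured 4.29, 6.24 and 9.11 CPM in the rich and 2.41, 3.76 and 4.27 CPM in the poor samples, so that the edges nearly met. Pdgfra, which oligodendrocyte precursors also express, had medians of 68.1 and 54.8 CPM, and Pdgfrb, shared with pericytes, of 23.5 and 17.7 CPM. Gjb6, a connexin shared with astrocytes, had 49.96 and 46.9 CPM. Itga8, an integrin chain, went the other way with a rich median of 23.5 and a poor median of 31.2 CPM. Dpep1 did not pass the filter and was at 0.208 CPM or less in both groups.

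Solute carriers, which move organic anions, dicarboxylates, sulfate and amino acids across the meningeal and vascular borders, had the highest median ratio of the roles at 2.65, and 3 of 9 were apart. Slc13a3, a sodium-coupled dicarboxylate carrier, was at 14.8, 15.5 and 16.0 CPM in the rich and 9.21, 10.3 and 14.2 CPM in the poor samples. Slc6a20a, an imino acid carrier, was at 6.09, 10.7 and 13.3 against 4.18, 5.14 and 5.88 CPM. Slc22a8, the organic anion transporter OAT3, was at 11.5, 12.9 and 21.4 against 5.94, 6.40 and 10.04 CPM. Slc13a4, a sulfate carrier, had a wider spread of 2.88, 8.29 and 18.8 CPM in the rich, so that 1 end touched the 1.69, 2.54 and 3.63 CPM of the poor samples despite a ratio of 3.26. The highest Slc13a4 and Slc22a8 values were again in the library rich in choroid plexus genes, with the next at 9.98 and 15.5 CPM.

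Among 13 secreted signals and binding proteins all ratios were above 1 and 4 genes were apart. Ptgds, prostaglandin D2 synthase, which oligodendrocytes also make, measured 294, 330 and 414 CPM in the rich and 130, 186 and 264 CPM in the poor samples. Igfbp2, an insulin-like growth factor binding protein, measured 26.1, 31.0 and 56.4 against 14.96, 16.7 and 23.2 CPM. The highest Igfbp2 value was in the library rich in choroid plexus genes, with the next at 37.5 CPM. Serping1 (the C1 inhibitor, ratio 1.51) and Serpinf1 (PEDF, ratio 1.41) completed the 4. Apod, a lipid carrier, had medians of 108 and 82.1 CPM, Cxcl12, a chemokine, of 59.6 and 44.7 CPM, and Itih5, a hyaluronan-binding protein, of 36.4 and 23.6 CPM, each with overlap. Igf2, a growth factor of the leptomeninges, was low at 0.454, 1.61 and 2.66 CPM in the rich and 0.055, 0.301 and 0.735 CPM in the poor samples.

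Retinoid handling genes had a median ratio of 1.71 and 0 of 6 apart. Aldh1a2, which makes retinoic acid in the meninges, measured 2.68, 4.81 and 6.72 CPM in the rich and 1.55, 2.27 and 3.16 CPM in the poor samples. Aldh1a1, also expressed outside fibroblasts, had medians of 59.1 and 58.8 CPM, and Rbp4, the secreted retinol carrier, of 5.41 and 4.42 CPM.

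Transcription factors of meningeal and mesenchymal identity were low, and 1 of the 12 that passed the filter was apart. Zic1 measured 10.2, 11.5 and 37.2 CPM in the rich and 5.72, 7.33 and 9.06 CPM in the poor samples. Its highest value and that of Zic4 (9.33 CPM) were again in the library rich in choroid plexus genes, with the next rich sample at 14.2 and 2.57 CPM. Foxc1, which meningeal development requires, had medians of 6.01 and 3.91 CPM. The remaining medians in rich and poor samples were 0.644 and 0.181 CPM for Foxc2, 1.07 and 0.738 CPM for Foxd1, 2.43 and 1.32 CPM for Twist1 and 0.504 and 0.486 CPM for Twist2. They were 0.644 and 0.359 CPM for Tbx15, 1.71 and 1.16 CPM for Tbx18, 2.76 and 2.13 CPM for Osr1, 0.719 and 0.322 CPM for Prrx2 and 0.434 and 0.383 CPM for Snai2.

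**Figure D3:**
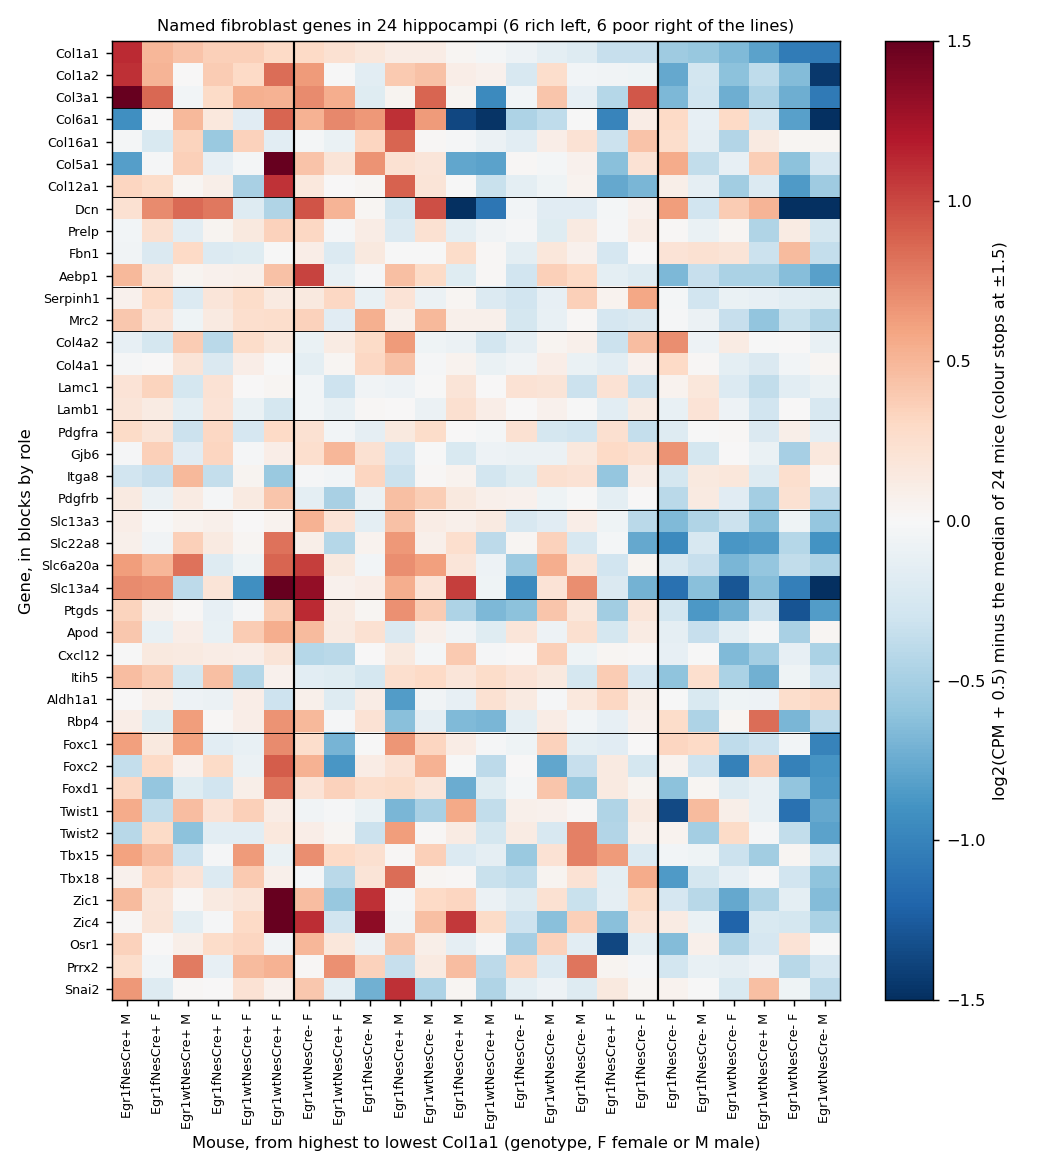
log2(CPM + 0.5) of 43 named fibroblast genes (rows, in blocks by role) in 24 hippocampi (columns, from highest to lowest Col1a1), as the difference from each gene's median over all mice; red is above and blue below, and vertical lines set off the 6 rich and 6 poor mice. Col1a1, Col1a2, Col3a1, Aebp1 and most solute carriers are blue in the poor columns, Dcn, Col6a1 and Col5a1 follow an order of their own, and the sixth column carries the high Col5a1, Zic1 and Zic4 values.

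Whether other genes follow Col1a1 was tested in the 12 middle mice, whose Col1a1 ran from 6.33 to 10.2 CPM. So narrow a range limits what this test can call. No gene was called: edgeR's quasi-likelihood test on log2 Col1a1 gave 0 of 15053 genes (0%) at an adjusted p of at most 0.05, 1211 (8.04%) at an unadjusted p under 0.05 and 618 (4.11%) at that p with a positive slope. Among the 76 fibroblast genes tested, 0 were called, 17 had an unadjusted p under 0.05 and all 17 of these slopes were positive. DESeq2 called 5 genes, of which 0 were fibroblast genes. Slopes were positive for 57 of the 76 members (75.0%) with a median of 0.35 log2 units per log2 unit of Col1a1, against 50.5% and 0.01 over all genes.

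The smallest unadjusted p among members belonged to Aldh1a2, with a slope of 2.19 (SE 0.62, edgeR adjusted p = 0.538). Col12a1 had a slope of 1.34 (SE 0.42, edgeR adjusted p = 0.538) and Slc13a3 of 0.80 (SE 0.27, edgeR adjusted p = 0.545). The other members at that level were Col6a1, Col6a2, Ogn, Fmod, Efemp1, Aebp1, Mrc2, Gjb2, Slc6a20a, Slc13a4, Ptgds, Serping1, Zic4 and Osr1. Among the middle mice, female Egr1wtNesCre- replicate 3 had the most Col1a1. It also had the highest middle value of each member at that level except Col6a1, Col6a2, Col12a1, Mrc2 and Zic4. Aldh1a2 reached 9.15 CPM there and Aebp1 24.2 CPM. How many members stay at that level without this mouse was not counted. Col1a2 had a slope of 0.61 (edgeR adjusted p = 0.641) and Col3a1 of 0.33 (edgeR adjusted p = 0.922), so that neither collagen passed the test in these mice. The sign of the Col3a1 slope turned when sex and flox status were added (-0.02) or when either of 2 mice was left out. Without female Egr1wtNesCre- replicate 3, 1 of these 2 mice, the Col3a1 slope was -0.055 and the Col1a2 slope 0.30. With Col1a2 in place of Col1a1 as the covariate, 1 gene was called, the carrier Slc6a20a (slope 1.55, edgeR adjusted p = 0.011).

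Genotypes were unevenly spread over the ranking. All 6 rich mice carried Nestin-Cre, 3 of them Egr1cKO and 3 Egr1wtNesCre+, and of the 6 poor mice 5 lacked Cre and 1 was Egr1wtNesCre+. No Egr1cKO mouse was among the poor, and no Cre-negative mouse among the rich. Floxed mice made up 3 of the rich and 2 of the poor, and females 4 of the rich and 3 of the poor. This composition depended on the ranking gene: among the 6 highest mice Cre was carried by 4 when ranked by Col1a2, by 3 when ranked by Col3a1 and by 5 when Col1a1 was scaled with TMM factors. Among the 6 lowest it was carried by 1, 2 and 1 mice.

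**Figure D4:**
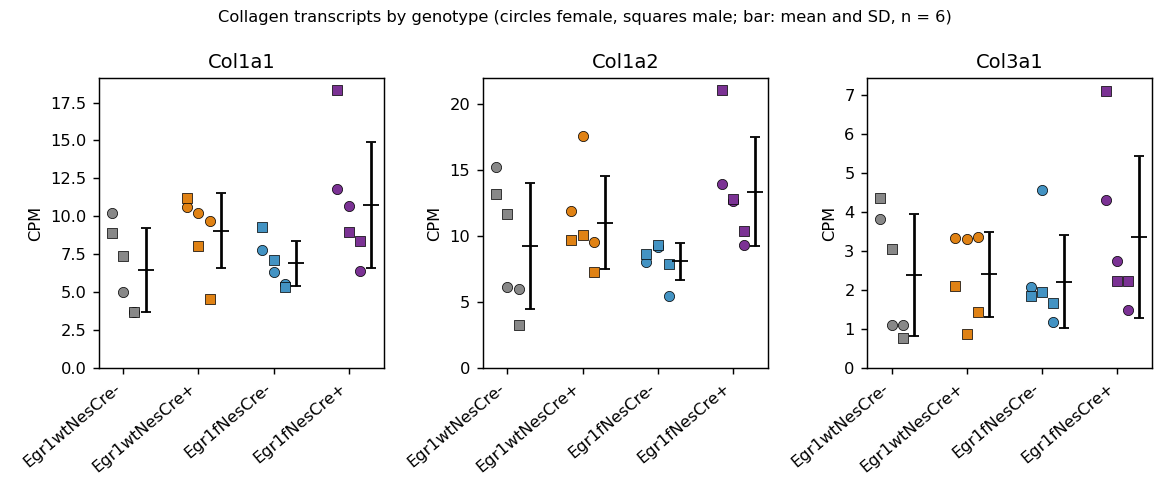
Col1a1, Col1a2 and Col3a1 (CPM, vertical axes) in 6 mice of each genotype (horizontal axis; circles female, squares male), with the mean and SD beside each group. Mean Col1a1 is 6.46 and 6.88 CPM in the Cre-negative genotypes and 9.04 and 10.7 CPM in the Cre-positive genotypes, with overlapping points.

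Over all 24 mice Col1a1 measured 6.46 ± 2.77 CPM (SD, n = 6) in Egr1wtNesCre-, 6.88 ± 1.49 in Egr1fNesCre-, 9.04 ± 2.47 in Egr1wtNesCre+ and 10.7 ± 4.18 CPM in Egr1fNesCre+ mice. Cre-positive mice exceeded Cre-negative mice by 0.56 on the log2 scale, and 10 of 12 lay above the median of the others. Since Col1a1 set the ranking, these values describe the uneven spread of Cre once more and carry no test of their own. Col1a2 and Col3a1 were not used for the ranking, but the tests of them were made after that spread was seen. Col1a2 was higher in Cre-positive mice by 0.55 (permutation test over 12 against 12 mice, two-sided, p = 0.017, adjusted p = 0.114 over 21 comparisons of the 3 collagens with Cre, flox and sex, and of Cre within subsets), in 11 of 12 mice. Col3a1 was higher by 0.36 (permutation p = 0.305, adjusted p = 0.534, 9 of 12 mice). Neither passed the adjusted threshold.

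Within the floxed mice Col1a2 measured 9.29, 12.8 and 21.1 CPM in Egr1fNesCre+ and 5.44, 8.32 and 9.33 CPM in Egr1fNesCre- mice, whose highest value just exceeded the lowest of the former. The Cre difference of 0.70 there had the lowest p of the 21 (exact permutation p = 0.0043) and did not pass after adjustment over all of them (adjusted p = 0.091). Within the unfloxed mice the difference was 0.40 (exact permutation p = 0.340, adjusted p = 0.549). The difference between these differences was not shown: the interaction of flox and Cre was 0.51 for Col1a2 (SE 0.37, edgeR adjusted p = 0.490). For Col1a1, which set the ranking, the interaction was 0.19 (SE 0.36), given without a test.

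In the model of flox, Cre, their interaction and sex over all genes, 0 fibroblast genes were called for any of the 4 terms by edgeR or by DESeq2. For Cre, edgeR called 9 genes of 19742 (0.0456%), and 11 of 92 fibroblast genes had an unadjusted p under 0.05 against 4.29% of all genes. Of these 11, 10 were higher in Cre-positive mice against 2.28% of all genes, and Itga8 was lower. Among the 10 were Col1a1, which set the ranking, Col1a2, Nid2, Gjb2, Slc22a8, Slc47a1, Igf2, Igfbp2 and Aldh1a2. Without Col1a1, Col1a2 and Col3a1, 9 of 89 members were at that p, 8 of them higher. Other cell markers shifted in the same term: choroid plexus genes had positive Cre fold changes in 12 of 12 cases (median log2 1.07, 0 called, 3 at that p) and endothelial genes in 10 of 11 (median 0.10, 0 called, 2 at that p). In the unfloxed mice 9 of 11 choroid plexus genes, all higher with Cre, were at that p against 5.94% of all genes. In the floxed mice 5 of 12 were higher with Cre (median log2 -0.19, 0 at that p against 15.5% of all genes). High choroid plexus sums were confined to 5 libraries. The unfloxed ones were female Egr1wtNesCre+ replicate 1 (2210 CPM) and male Egr1wtNesCre+ replicate 3 (337 CPM). The floxed ones were male Egr1fNesCre+ replicate 2 (1168 CPM) and male Egr1fNesCre- replicates 2 (856 CPM) and 3 (1063 CPM). The part of these other cell markers in the fibroblast values was not tested. The Cre log2 fold change was 0.49 for Col1a2 (SE 0.19, edgeR adjusted p = 0.997) and 1.18 for Igf2 (SE 0.33, edgeR adjusted p = 0.627). For Col1a1, which set the ranking, it was 0.57 (SE 0.18), given without a test. Without the filter on low counts Col1a2 was called in edgeR (adjusted p = 1.23e-04), and over 30 alternatives its adjusted p ran from 1.23e-04 to 0.99999.

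The flox term called 1 gene, Egr1 (0.00507%), with 9 fibroblast genes at an unadjusted p under 0.05 against 5.50% of all genes. Among these 9 were the laminin chains Lama1, Lama2, Lamb1 and Lamc1, each higher in floxed mice, with edgeR adjusted p between 0.872 and 0.886. The interaction term called 1 gene, Egr1 again (0.00507%), with 11 fibroblast genes at that p against 18.4% of all genes. Leaving out 1 mouse, male Egr1wtNesCre+ replicate 2, raised the interaction calls to 1455 genes with 4 fibroblast genes among them, Col5a1, Fbln2, Pdgfra and Itih5. The sex term called 13 genes (0.0658%), with 5 fibroblast genes at that p against 5.79% of all genes.

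Fitted apart, the floxed mice gave 4 genes called for Cre (0.0215%) and the unfloxed mice 0 (0%), again with 0 fibroblast genes by edgeR. In the floxed mice 28 of 92 members had an unadjusted p under 0.05 against 15.5% of all genes, and 24 of them were higher with Cre against 7.95% of all genes. Without Col1a1, Col1a2 and Col3a1, 26 of 89 were at that p, 22 of them higher. Aldh1a2 (log2 fold change 1.05, SE 0.21), Slc13a4 (1.00, SE 0.23) and Col1a2 (0.75, SE 0.17) were among the 24, each at an edgeR adjusted p of 0.252. In the unfloxed mice 7 of 91 members reached that p against 5.94% of all genes. Summed over the list without Col1a1, the medians were 1562 CPM in Egr1fNesCre+, 1511 in Egr1fNesCre-, 1529 in Egr1wtNesCre+ and 1423 CPM in Egr1wtNesCre- mice, and the ranges of the 4 genotypes overlapped.

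Markers of other cells at the borders and vessels of the brain partly moved with the ranking between rich and poor samples. Endothelial genes (11 genes) summed to 201, 233 and 275 CPM in the rich and 128, 165 and 214 CPM in the poor samples, with 0 genes apart, and the tight junction gene Cldn5 had medians of 29.3 and 14.1 CPM. Mural cell genes (11 genes) summed to 186, 195 and 207 CPM against 139, 152 and 181 CPM, which did not overlap, and the pericyte gene Rgs5 was apart at 89.5 to 105 CPM against 65.7 to 88.1 CPM. Border macrophage genes (8 genes) summed to 17.4, 24.5 and 26.6 CPM against 11.8, 17.4 and 19.3 CPM, and their receptor Mrc1 had medians of 2.88 and 1.17 CPM. Within the 12 middle mice, however, 1 of 11 endothelial slopes on Col1a1 was positive (median slope -0.55, 3 at an unadjusted p under 0.05 and all negative), and 3 of 9 mural slopes were. Arachnoid barrier genes (6 genes) summed to 113 to 211 CPM in the rich and 131 to 157 CPM in the poor samples. The part of these cells in the differences of shared genes such as Pdgfrb and Nid2 was not tested.

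Choroid plexus genes (12 genes) were at 337 to 2210 CPM in 5 libraries, of which 1 was rich, 3 middle and 1 poor, and at 33.8 to 83.8 CPM in the other 19. Ttr, transthyretin, the leading product of the choroid epithelium, reached 1993 CPM in the rich library named above and 31.0 CPM in the median of the rich. Without that library 18 fibroblast genes were apart, beside 0.456% of all genes. Genes already apart stay apart when a mouse is left out, so this number could not fall and nothing is read from it. Ependymal genes (5 genes) summed to 10.4 to 23.1 CPM in the rich and 7.90 to 19.3 CPM in the poor samples, and red blood cell genes (5 genes) to 28.6 to 83.1 and 47.5 to 62.6 CPM.

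Cell types of the parenchyma overlapped between the groups in their sums. Microglial genes (7 genes) had median sums of 274 and 245 CPM in rich and poor samples, astrocyte genes (7 genes) of 5187 and 4571 CPM, oligodendrocyte precursor genes (5 genes) of 232 and 223 CPM and oligodendrocyte genes (6 genes) of 4716 and 4676 CPM. Genes of hippocampal excitatory neurons (8 genes) summed to 911, 1241 and 1516 CPM in the rich and 1052, 1384 and 1478 CPM in the poor samples. Genes of neighbouring thalamus (6 genes, medians 78.0 and 77.9 CPM) and striatum (6 genes, medians 53.6 and 53.8 CPM) were level. Genes of osteoblasts, another source of Col1a1, summed to 4.54 to 7.72 CPM in the rich and 4.63 to 7.52 CPM in the poor samples, most of it Dmp1 (medians 4.76 and 4.63 CPM), while Bglap reached at most 3 counts in any library. Skeletal muscle genes had median sums of 7.07 and 6.30 CPM.

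**Figure D5:**
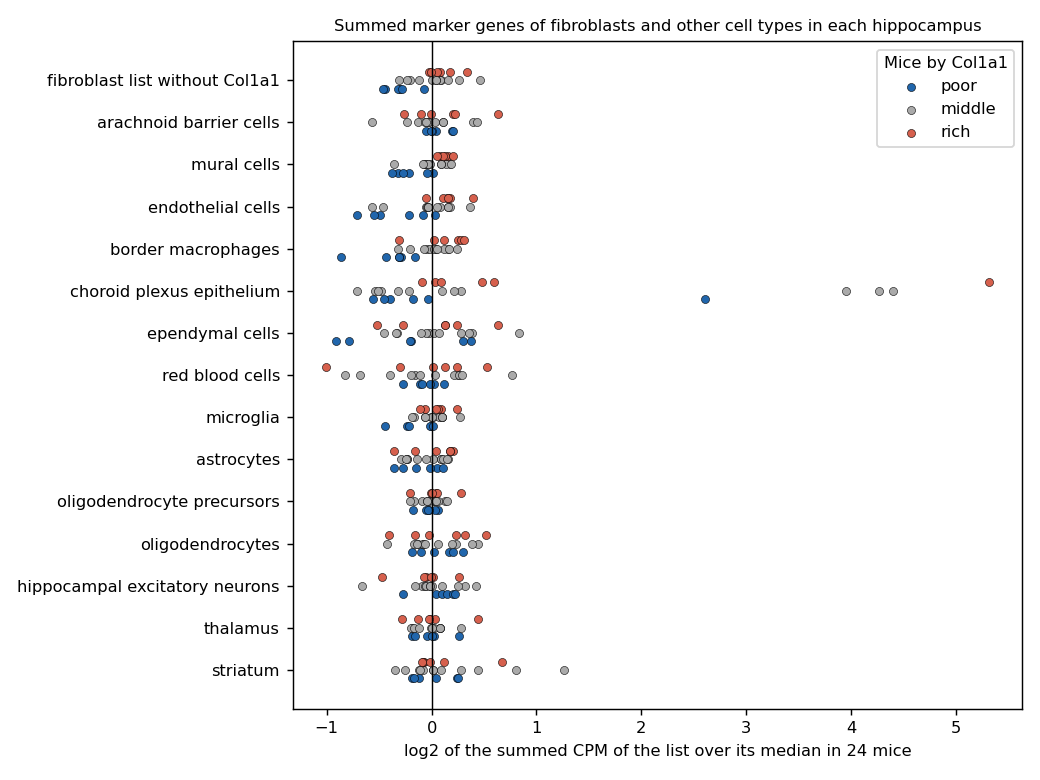
Summed CPM of marker lists in each hippocampus as log2 of its ratio to the list's median over 24 mice (horizontal axis), in rows by cell type, with the 6 rich mice in red, the 12 middle mice in grey and the 6 poor mice in blue. The poor mice lie left of the rich mice for fibroblasts and mural cells, choroid plexus sums of 5 libraries lie far to the right, and the neuronal, thalamic and striatal rows overlap.

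Of 19650 kept genes outside the fibroblast list 59 were above and 27 below without overlap. Over all 19742 kept genes the shares were 0.390% and 0.137%. Mmp14, a membrane-bound protease that cleaves collagen, measured 16.4, 24.7 and 33.6 CPM in the rich and 8.77, 11.5 and 14.9 CPM in the poor samples. Myoc, myocilin, a secreted glycoprotein, measured 14.8, 17.51 and 27.99 against 6.78, 9.15 and 13.7 CPM. Eng, endoglin, a co-receptor of endothelial cells, measured 19.3, 20.5 and 22.7 against 8.38, 11.4 and 17.7 CPM, but correlated with Col1a1 by -0.53 within the 12 middle mice. Coch, the matrix protein cochlin, had a ratio of 1.68, and its highest value of 13.9 CPM in the library rich in choroid plexus genes was followed by 6.15 CPM.

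Aqp4, the water channel of astrocyte endfeet, measured 178, 233 and 261 CPM in the rich and 103, 142 and 159 CPM in the poor samples. It was also the only 1 of the 17 named genes called in the Cre term (log2 fold change 0.61, edgeR adjusted p = 1.79e-04), and for Mmp14 the adjusted p was 0.080. Other genes above were Amd2 (ratio 2.67), Atp6v1c2 (1.91), Gm20559 (1.79), Gm3055 (1.68), Wdfy1 (1.63) and Dennd3 (1.57). The 5 lowest ratios were those of Gstm6 (0.359), Gm19196 (0.360), Ccdc188 (0.617), Cyp2t4 (0.674) and Mtmr12 (0.727). These genes were chosen between groups that differed in Cre, so nothing is read from their Cre fold changes. The level of Amd2, Gstm6 and the pseudogene Gm19196 is uncertain, because reads can be shared with closely related copies.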

How the data were processed

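Hippocampal RNA of 24 mice was measured by non-stranded RNA-seq. The authors deposited whole-number counts per gene, without normalization, for 36605 genes. Reads were trimmed with Trim Galore and mapped to mm10 (GRCm38) with STAR. Versions differ between sources: the submitters' processing notes name Trim Galore 3.8.2 and STAR 2.7.9. The annotation used for counting is not given in the sources used here. Reads of overlapping or antisense genes cannot be separated in such libraries. Symbols and positions came from GENCODE M21.

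Each mouse was assigned its sex, genotype and replicate number by its title and characteristics, and genotypes are named as the study does. Mice were separate animals, and no pair within a group agreed within counting noise (lowest chi-square per degree of freedom 5.06). Values between rich and poor mice are CPM on library totals. Genes were kept by filterByExpr with a minimum count of 10 on 8 groups, and on the mice of each smaller fit. Tests used R 4.3.3 with edgeR 4.0.16, TMM factors, the quasi-likelihood F test and Benjamini-Hochberg adjustment. The standard error is the size of the log2 fold change divided by the square root of F. Correlations with Col1a1 used log2(CPM + 0.5). Permutation tests of the 3 collagens and the correlation of Col1a2 with Col3a1 used log2 CPM with scipy 1.17.1 and were added after the data were seen, as were promoter matches. The permutation p-values of the collagens were adjusted over all 21 comparisons. The smallest p that 6 against 6 mice allow is 0.00216. Alternatives were DESeq2 1.42.0, its size factors, no count filter, other ranking genes and group sizes, other covariates, the replicate number as a block, separate fits of floxed and unfloxed mice, and each mouse left out. The fits of the Cre term and of the middle mice were also run on simulated counts. The changed genes there were all well counted, so this does not cover members with few counts. Its outcome is not given here.

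The mice, the gene lists and the tests were chosen with earlier results of these data known. Named genes are the 3 collagens, up to 4 members of each role with a mean of at least 5 CPM, all listed transcription factors, members called in a fit, and outside the list the 12 highest and 5 lowest ratios among genes of at least 1 CPM without overlap. Other members were named after their values were seen, because their groups did not overlap or their unadjusted p was small. A few genes that these rules take are not reported here, though counts over the lists include them.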

Additional observations from a re-analysis of the deposited data

Results flagged for a closer look

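Of 98 groups of 6 mice examined for 1 sample far from the rest, by the gap to its neighbour over the whole range, 8 were set off. Chance sets off about 1 in 20 groups of freely drawn samples, a rate that does not hold for the rich and poor groups, which were cut from a ranking. In the rich group 5 highest values stood off. Col1a1, the ranking gene itself, was 18.4 CPM in male Egr1fNesCre+ replicate 1, where the next sample had 11.8, and Fbn1 was 21.8 CPM in male Egr1wtNesCre+ replicate 1, where the next had 17.5. Female Egr1wtNesCre+ replicate 1, the library highest in choroid plexus genes, gave the other 3, with 56.4 CPM of Col5a1, 37.2 CPM of Zic1 and 9.33 CPM of Zic4. In the poor group the highest value, 125 CPM for Col4a2 in female Egr1fNesCre- replicate 3, stood off. Among the Egr1fNesCre- mice, Col1a2 was lowest at 5.44 CPM in female replicate 3 and Col3a1 was highest at 4.58 CPM in female replicate 2.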

How the results depend on the processing

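The number of fibroblast genes apart between rich and poor mice was 18, beside 0.390% of all genes. It became 28 (0.922%) when the mice were ranked by Col1a2, 30 (1.68%) with 4 mice on each side and 5 (0.0456%) with 8 on each side, so the share of all genes moved in the same direction. It was 16 (0.258%) with TMM-scaled CPM, 15 (0.243%) when ranked by Col3a1, and 18 to 27 (0.456% to 0.724%) when each mouse was left out. Leaving a mouse out cannot lower this number. The rich mice shared with the main ranking numbered 3 when ranked by Col1a2 and 2 when ranked by Col3a1. In the middle mice 0 genes were called, but 5 by DESeq2 (Bhlhe40, Plagl1, Ube2g2, Clec18a and Nxn) and 1 with Col1a2 as covariate, which was 1 fibroblast gene. The Col3a1 slope was -0.023 with sex and flox status added and -0.18 with the replicate block, and ran from -0.055 to 1.53 with mice left out in turn (below 0 without female Egr1fNesCre+ replicate 1 or female Egr1wtNesCre- replicate 3). Without the filter on low counts 10 fibroblast genes were called for Cre, 13 for the interaction, 3 for flox and 2 for sex, against 0 with it, and 191, 1173, 97 and 111 genes in all against 9, 1, 1 and 13. The cause was not tested. The 10 for Cre included Col1a1, which set the ranking. DESeq2 called 19, 40, 2 and 17 genes in all for these 4 terms. Leave-one-out fits gave 0 to 4 fibroblast genes for the interaction, all 4 without male Egr1wtNesCre+ replicate 2, which gave 1455 genes in all, and 0 for the other terms. Genes called for Cre ran from 5 to 12 in these fits, with 5 without any of 8 mice (male Egr1fNesCre- replicate 3, female Egr1fNesCre- replicate 1, male Egr1fNesCre+ replicate 1, female Egr1fNesCre+ replicate 3, male and female Egr1wtNesCre- replicate 2, male and female Egr1wtNesCre+ replicate 1), and for flox from 1 to 2 (2 without male Egr1fNesCre+ replicate 2 or male Egr1wtNesCre- replicate 2), and male Egr1fNesCre- replicate 1 gave 15 for the interaction when left out. The Cre difference of Col3a1 within the unfloxed mice was -0.068 by edgeR, while the difference of mean log2 CPM there was 0.17. The Col1a1 difference ran from -0.018 to 0.32 for the interaction and from -0.13 to 0.081 for sex with mice left out. With the replicate block, 6 genes were called for Cre and 0 fibroblast genes for any term, and Col1a1 had a Cre difference of 0.57. Replicate numbers did not pair the mice: same-numbered mice correlated by -0.26 to 0.35, and 9 of 24 correlated best with their own number. Col1a1 rests on 76 to 379 counts a library.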

Other observations

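Female Egr1wtNesCre- replicate 3, the first mouse below the rich group with 10.2 CPM of Col1a1, had the highest sum of the other 93 fibroblast genes of all 24 mice at 2100 CPM. Ptgds, which oligodendrocytes also make, gave 694 CPM of that sum. In female Egr1wtNesCre+ replicate 1, the rich mouse with the highest sum (1933 CPM), Ptgds gave 414 CPM. Female Egr1wtNesCre- replicate 3 was also highest in Dcn but for 1 other middle mouse, with 52.8 CPM against 53.5 CPM in male Egr1wtNesCre- replicate 3. Both of these mice lacked Cre. Striatal marker genes, which were level between rich and poor mice, were highest in a middle mouse, male Egr1fNesCre+ replicate 3, at a sum of 133 CPM against a median of 53.6 CPM in the rich mice.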
